A study of Mus musculus with 27 samples.

Results

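DNA methylation around 7 genes that mark fibroblast, adipocyte and neural fates was read from a series on C2C12 cells, a mouse muscle line. The genes were chosen by name: Pdgfra, Fn1, Cebpb and Lep for the mesenchymal side and Gfap, Olig2 and Neurog1 for the neural side. They are 7 of 13012 genes of known strand with measured positions. For each gene, positions from 5 kb before the gene start to 1 kb past the gene end were taken, along the gene's strand. The 775 listed positions there held 723 with a level in all 27 libraries, and these fell into 14 runs, of 18447 in the genome. A run is a stretch of measured positions with gaps of at most 200 bp.

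All libraries came from the same line and the same treatment: C2C12 myoblasts were differentiated in 2% horse serum and exposed for 2 h to 50% horse serum, a shock used to align the circadian clocks of a culture. DNA was collected at 12, 18, 24, 30, 36, 42, 48, 54 and 60 h after the shock, with 3 libraries at each time, and methylation was measured by reduced representation bisulfite sequencing (RRBS). In RRBS the genome is cut at CCGG sites and the short fragments, rich in CpG dinucleotides, are sequenced after bisulfite treatment, which leaves methylated cytosines unchanged. Unshocked cells are not analysed here. The labels do not say whether the 3 libraries of a time came from separate cultures, so the spread behind the p-values may be technical.

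A level is the percentage of methylation at a position. Library means over all kept positions ranged from 11.4% (replicate 3 of 12 h) to 12.7% (replicate 3 of 48 h). Positions at exactly 0 made up 5.15% of the library with the fewest and 25.4% of the library with the most, which was replicate 3 of 12 h. The read depth behind each level is unknown. Deposited levels of neighbouring positions change evenly, as at 4 adjacent positions before the start of Fn1 with means of 3.28%, 3.20%, 3.12% and 3.05%, which is how smoothed values would look. The sources used here do not say whether the levels were smoothed, so a value at a single CpG may carry its neighbours' reads. Methylation does not measure expression, so the muscle identity of the cells could be described by level only. The gene start of Myog stood at 83.9% ± 3.43, that of Acta1 at 12.4% ± 4.09 and that of Des at 12.2% ± 2.66 (SD, n = 27). These were the 3 of 8 muscle markers with a level at the start, and 6 of the 8 had a known strand. No level was available at the starts of the 3 endothelial and 2 immune markers. Only 1 of the 3 endothelial markers had a known strand, and starts of genes without one were not looked up.

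Pdgfra encodes the alpha receptor for platelet-derived growth factor and marks the fibro-adipogenic progenitors that lie between muscle fibres. Fn1 encodes fibronectin, a glycoprotein of the extracellular matrix that fibroblasts secrete, Cebpb a transcription factor of early adipogenesis, and Lep the hormone leptin, made by mature fat cells. Gfap encodes the intermediate filament protein of astrocytes, Olig2 a basic helix-loop-helix factor of oligodendrocytes and motor neurons, and Neurog1 a proneural factor of the same family. CpG islands at the starts of genes are in most tissues free of methylation whether or not the gene is active, while CpG-poor promoters are more often methylated.

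The 250 bases before the start of 5 members show what was measured and what was not (RefSeq, GRCm38.p6, the assembly that mm10 names). They are read 5′ to 3′ along the gene, and capitals mark each CpG with a level in all 27 libraries.
Lep, chr6:29059971-29060220, plus strand: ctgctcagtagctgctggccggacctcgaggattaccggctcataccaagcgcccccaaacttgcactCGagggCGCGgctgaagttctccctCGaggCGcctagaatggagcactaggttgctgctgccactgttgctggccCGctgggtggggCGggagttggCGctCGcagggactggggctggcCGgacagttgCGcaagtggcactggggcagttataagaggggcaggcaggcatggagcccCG
Cebpb, chr2:167688665-167688914, plus strand: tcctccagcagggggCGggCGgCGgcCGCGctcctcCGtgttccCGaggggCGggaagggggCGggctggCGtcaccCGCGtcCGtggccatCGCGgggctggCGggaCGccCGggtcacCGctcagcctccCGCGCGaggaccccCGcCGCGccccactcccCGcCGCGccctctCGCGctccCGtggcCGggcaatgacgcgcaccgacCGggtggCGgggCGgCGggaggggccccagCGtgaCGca
Gfap, chr11:102897201-102897450, minus strand: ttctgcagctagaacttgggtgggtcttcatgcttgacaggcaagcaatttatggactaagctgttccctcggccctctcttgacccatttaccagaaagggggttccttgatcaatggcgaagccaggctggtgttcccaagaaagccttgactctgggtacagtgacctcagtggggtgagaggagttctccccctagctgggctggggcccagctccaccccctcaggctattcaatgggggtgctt
Olig2, chr16:91225300-91225549, plus strand: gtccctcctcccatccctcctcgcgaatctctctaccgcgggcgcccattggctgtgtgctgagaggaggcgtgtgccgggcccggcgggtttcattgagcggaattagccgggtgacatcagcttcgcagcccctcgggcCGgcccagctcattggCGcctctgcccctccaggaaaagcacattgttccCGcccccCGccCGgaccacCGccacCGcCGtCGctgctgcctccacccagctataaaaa
Neurog1, chr13:56252181-56252430, minus strand: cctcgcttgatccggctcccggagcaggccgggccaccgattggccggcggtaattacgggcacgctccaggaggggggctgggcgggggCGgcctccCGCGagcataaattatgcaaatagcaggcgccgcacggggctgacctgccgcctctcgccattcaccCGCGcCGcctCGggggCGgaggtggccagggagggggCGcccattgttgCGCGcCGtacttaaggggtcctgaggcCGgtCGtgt

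Of the CpGs in these windows, levels were present at 12 of 16 before Lep, 38 of 41 before Cebpb, 0 of 2 before Gfap, 9 of 22 before Olig2 and 14 of 29 before Neurog1. The CpG observed/expected ratio was 0.606 for Lep, 0.985 for Cebpb, 0.104 for Gfap, 0.821 for Olig2 and 0.923 for Neurog1. The site CCGG, which reads the same on both strands, was found 3 times before Lep, 3 times before Cebpb, 5 times before Olig2 and 5 times before Neurog1, and not before Gfap. Of the 26794 genes with such a window (the first listed for each gene), 52.9% held no CCGG. A kept position was present in 2.38% of these 14168 windows, in 39.4% of those with 1 and in 80.0% of those with 2 or more. The start of Gfap was not measured, nor was its body, in which CCGG was not counted. The 18 kept positions of Gfap lay 839 to 989 bp past the gene end, inside the neighbouring gene Fam187a. For Pdgfra the RefSeq window belongs to a start 929 bp inside the annotated gene, and Fn1 is named without a sequence.

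Along Lep, the measured CpGs lay at the start alone, in 1 run of 19 positions from 182 bp before to 43 bp after it (chr6:29060039-29060264). The level was lowest at 49.8% (12 h, replicate 2), had a median of 65.3% and was highest at 83.7% (48 h, replicate 3), with a mean of 66.8% ± 7.65 (SD, n = 27). Every library was therefore close to or above the middle of the scale, and 96.8% of the 10482 measured gene starts had a lower mean. Within the run the deposited level climbed towards the start, with the doubt about smoothing that applies to all values of single CpGs: 40.6% ± 23.9 at the CpG 182 bp before it, 60.7% ± 13.5 at 106 bp, 77.5% ± 9.51 at 62 bp and 80.5% ± 9.50 at 2 bp before it. The CpG 52 bp before the start is the centre of TTGCGCAA, a palindrome of the kind that C/EBP factors, the family of Cebpb, bind. It reads the same on both strands and overlaps no CCGG. It began 55 bp before the start of Lep, its CpG stood at 78.7% ± 8.69, and 0.172% of the 26794 windows (46) held these letters. Such a match is a description of the sequence.

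Pdgfra was the member with the widest spread. Its gene start held 7 positions from 55 bp before to 17 bp after it (chr5:75151267-75151339), with a level of 35.8% at the lowest (12 h, replicate 1), 63.7% at the median and 100% at the highest (42 h, replicate 1), and a mean of 63.5% ± 15.3 (SD, n = 27). It exceeded the means of 96.3% of all gene starts. The libraries covered most of the upper part of the scale. Among the 74 gene starts with a mean of 60% to 75% and at most 10 positions, the median SD was 7.39 points (quartiles 5.31 and 10.2), and 4 of the 74, Pdgfra included, had an SD as large as that of Pdgfra. A second start is listed by RefSeq 929 bp into the gene. Before it, 5 positions 703 to 770 bp into the gene had a level in 25 libraries and means from 23.0% to 41.3%.

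The measured part of the body of Pdgfra was less methylated than its annotated start. The start listed 929 bp into the gene counts as body here. A run of 27 positions 1803 to 2018 bp into the gene (chr5:75153125-75153340) stood at 13.0%, 23.4% and 37.0% (lowest, median and highest library), with a mean of 23.9% ± 5.18. A run of 20 positions 2557 to 3137 bp into it (chr5:75153879-75154459) stood at 16.4%, 31.5% and 46.9%, with a mean of 32.1% ± 6.37. The first dipped to 15.3% ± 6.43 at 1917 bp and reached 39.0% ± 13.1 at 2018 bp, and the second ranged from 51.8% ± 30.7 at its first CpG to 10.9% ± 8.40 at its last. The start run was the higher in 27 of 27 libraries against the first body run and in 25 of 27 against the second. Taking start and body segments as a whole, the start exceeded the body by 36.2 points ± 17.0 (SD, n = 27; lowest 4.96, highest 79.9). Of the 5337 genes with both segments, the start was the higher one in 33.7%, the median difference was -1.46 points, and the start exceeded the body by 30 points or more in 1.95% (104 genes, Pdgfra among them).

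Fn1 and Cebpb had starts with little methylation. The 64 positions of Fn1 reached from just before the start to 426 bp after it (chr1:71652854-71653381, at the edge of the neighbouring gene Apol7d) and stood at 1.26%, 3.78% and 7.07% (lowest, median and highest library), with a mean of 3.87% ± 1.55. No single CpG had a mean above 9.63%. Cebpb is a short gene of 1518 bp, and 276 positions from 567 bp before to 733 bp after its start (chr2:167688348-167689648) stood at 0.935%, 1.86% and 2.64%, with a mean of 1.87% ± 0.467. Another 53 positions near its end (chr2:167689919-167690184) stood at 0.224%, 0.987% and 7.19%. Both runs were thus low in all 27 libraries, and their SDs were 0.467 and 1.61 points.

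On the upstream side of Cebpb the deposited levels fell towards the start. The mean level was 48.8% ± 30.6 at the CpG 567 bp before the start, 25.8% ± 15.5 at 543 bp, 8.57% ± 4.94 at 497 bp and 2.28% ± 2.24 at 392 bp. A run of 5 positions 2014 to 1913 bp before the start (chr2:167686901-167687002) stood at 46.9%, 62.8% and 72.4% (lowest, median and highest library), with a mean of 61.7% ± 6.62, and was higher than the start run in 27 of 27 libraries by 59.8 points ± 6.48. No kept position lay between 1913 and 567 bp before the start, and at the CpG 567 bp before it libraries ranged from 0% to 94.4%. As at Lep, the evenness of the deposited levels means that the width and steepness of this fall are not measured CpG by CpG.

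The neural factors lay between these extremes. The start run of Olig2 (15 positions, chr16:91225441-91225562, from 109 bp before to 12 bp after the start) stood at 0% in 6 libraries, had a median of 5.17% and reached 30.7% (12 h, replicate 2), with a mean of 9.45% ± 10.0. The second run, 308 to 640 bp into the gene (26 positions, chr16:91225858-91226190), stood at 12.8%, 18.4% and 25.4%, with a mean of 18.0% ± 2.85. Its first CpG had 38.2% ± 13.0 and its lowest 10.6%. The last run, 922 to 1971 bp into the gene (131 positions, chr16:91226472-91227521), stood at 8.54%, 14.1% and 18.4%, with a mean of 14.2% ± 2.13, and its CpGs ranged from 2.87% to 25.1%. The means of these 2 runs were low but above 0 in each library, although single CpGs in them stood at 0 in some, and nothing past 1971 bp of the 3128 bp gene was measured. The start run was the lowest of the 3 by its mean and the most variable.

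Neurog1 was low where it was measured, and nothing past 904 bp of the 1703 bp gene was measured. The 55 positions from 160 bp before to 496 bp after its start (chr13:56251684-56252340) stood at 4.76%, 7.54% and 12.6% (lowest, median and highest library), with a mean of 7.65% ± 2.27. A plateau of up to 18.2% lay around 168 to 202 bp into the gene, against 3.85% ± 3.40 at the CpG 160 bp before the start and 2.56% ± 4.05 at 496 bp. The second run (7 positions, 814 to 904 bp into the gene, chr13:56251276-56251366) stood at 0%, 4.19% and 10.8%, with 3 libraries at 0. Of the 19 positions of Neurog1 that lacked a value in some libraries, means over the libraries present were 2.40% to 10.0%.

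Gfap was high where it was measured. The run past its end (26 positions, chr11:102886170-102886497, of which 18 lay within 1 kb of the gene end) stood at 44.4% (54 h, replicate 2), 62.0% and 68.5% (24 h, replicate 3) as lowest, median and highest library, with a mean of 59.4% ± 6.76. The 18 positions alone had a mean of 57.4% ± 9.41, higher than 77.7% of the 828 end segments in the genome, whose median was 12.1%. These levels belong to the region of Fam187a and say nothing of the Gfap promoter.

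**Figure D1:**
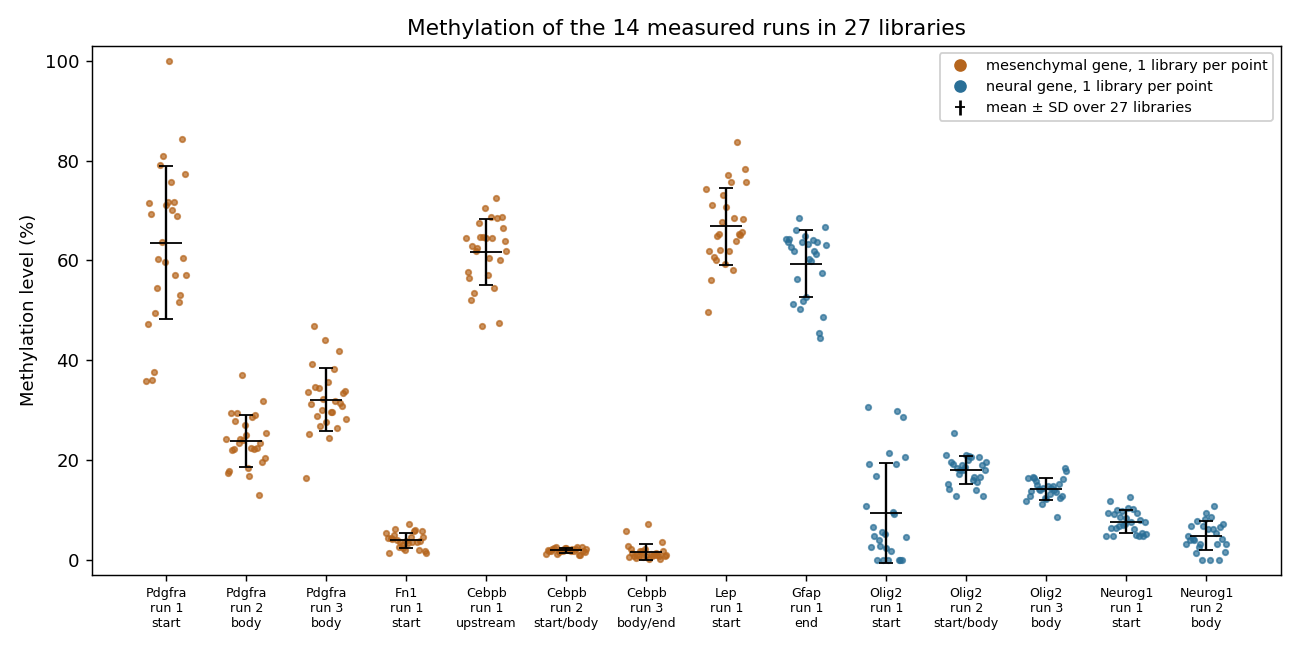
Methylation level (percent, vertical axis) of the 14 runs of the 7 genes, mesenchymal genes left of neural genes. Each point is 1 of 27 libraries, black marks give the mean ± SD. The runs at the starts of Pdgfra and Lep, upstream of Cebpb and past the end of Gfap have means from 59.4% to 66.8%, and all runs of Fn1, Olig2 and Neurog1 and the start of Cebpb have means of 18.0% or lower.

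**Figure D2:**
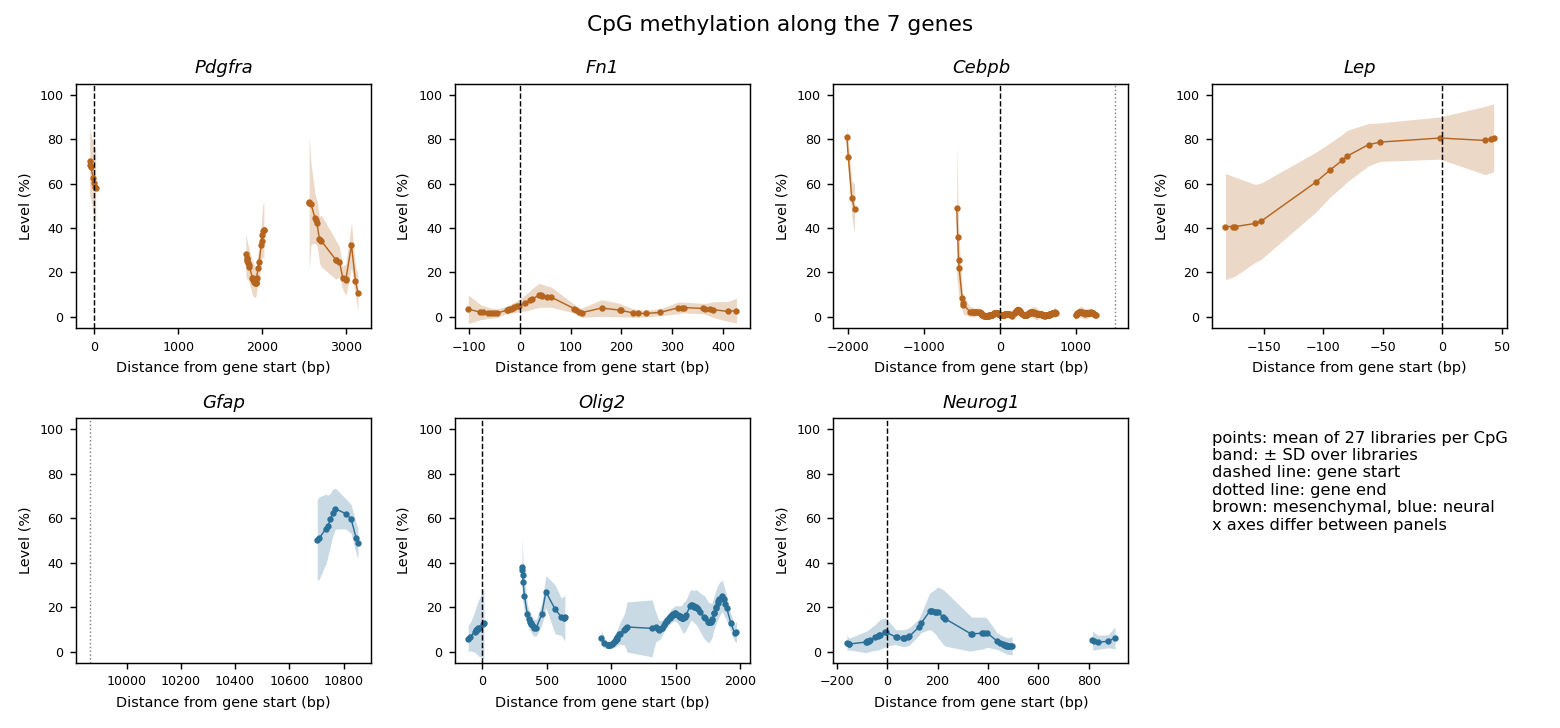
Mean methylation level (percent) of each kept CpG against its distance from the gene start (bp), with a band of ± SD over 27 libraries, 1 panel per gene and a separate horizontal scale in each. Levels climb towards the start of Lep, fall before the start of Cebpb and stay under 10% along Fn1, and Gfap has CpGs only past its end.

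The mesenchymal and neural genes were set side by side at their starts. Start segments run from 1000 bp before to 500 bp after the gene start and existed for Pdgfra, Fn1, Cebpb and Lep on one side and for Olig2 and Neurog1 on the other. The mean over the mesenchymal starts was 34.1% ± 4.52 (lowest library 25.8%, highest 42.9%) and that over the neural starts 11.1% ± 2.42 (8.56% to 17.9%), a difference of 23.0 points ± 4.62 (SD, n = 27) that was positive in 27 of 27 libraries. That mean described no single gene, since the mesenchymal starts fell into separate levels. The Pdgfra level used here and in the order below is that of its annotated gene start. The 5 positions before the start listed 929 bp into the gene had means from 23.0% to 41.3% over 25 libraries. Pdgfra and Lep averaged 65.2% ± 9.02, which was 54.0 points ± 8.85 above the neural mean in 27 of 27 libraries. Fn1 and Cebpb averaged 3.01% ± 0.859, a difference of -8.12 points ± 2.39 from the neural mean, with 0 of 27 libraries above it. These pairs group the genes by the same levels, so the library counts describe the split and are not separate evidence. For further genes of these lineages only medians were taken, a measure unlike the means over members. By median the order was turned, with 11.3% over 12 fibroblast, 19.99% over 7 adipocyte and 24.4% over 15 neural and glial genes. The highest starts went the other way, at 92.2% in the fibroblast, 53.1% in the adipocyte and 49.3% in the neural and glial list. Starts at 50% or more numbered 2, 1 and 0. Means over these lists were not computed, so the turned medians do not show that a difference of means would be reversed. No test was made, because the genes were picked by name with results known and genes are not replicates.

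In order of level the starts ran Lep 66.8%, Pdgfra 63.5%, Olig2 14.6% ± 3.87, Neurog1 7.65%, Fn1 3.87% and Cebpb 2.15% ± 0.676. The ranges over libraries overlapped for each neighbouring pair except Pdgfra and Olig2, which were 48.9 points ± 15.6 apart. Lep exceeded Pdgfra in 16 of 27 libraries (3.30 points ± 16.2), so their order did not hold beyond the spread. Olig2 exceeded Neurog1 in 26 of 27 libraries (6.96 points ± 4.11), Neurog1 exceeded Fn1 in 24 of 27 and Fn1 exceeded Cebpb in 22 of 27. Among all 10482 gene starts the median was 3.47% (quartiles 2.21% and 12.8%), with 71.8% under 10% and 6.29% at 50% or more, so that Olig2 lay above 76.5%, Neurog1 above 68.0%, Fn1 above 53.9% and Cebpb above 23.3% of them.

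**Figure D3:**
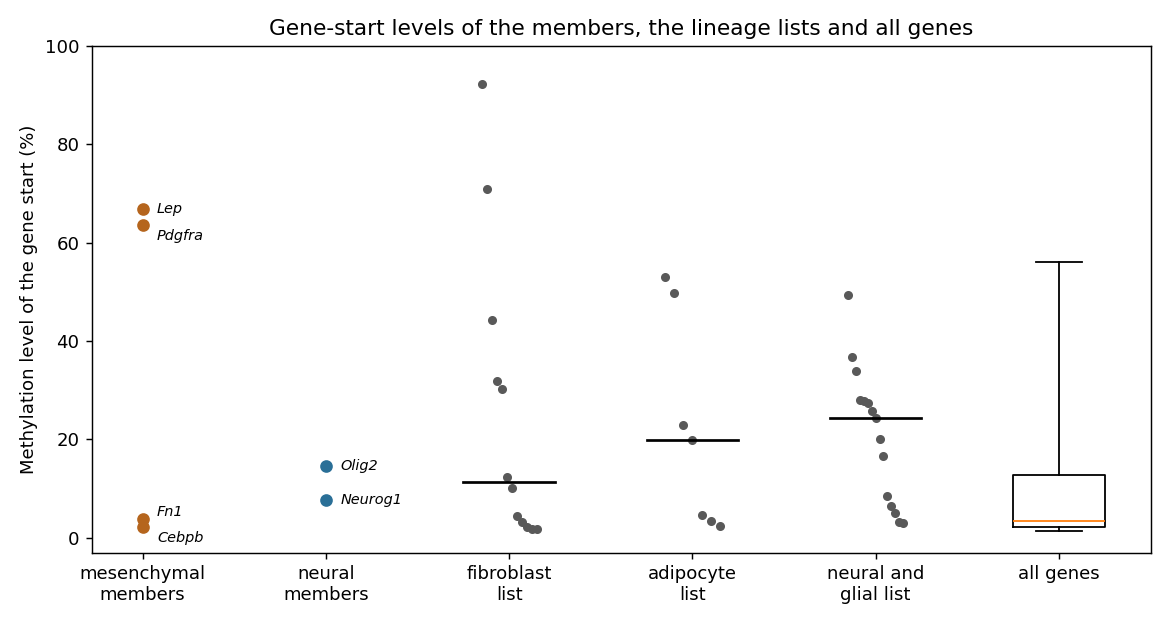
Mean methylation level of the gene start (percent, mean of 27 libraries) of the members, of 3 lists of further lineage genes (black lines are medians) and of all genes (box: quartiles and median, whiskers: 5th and 95th percentile). Lep and Pdgfra sit above 60%, and the other 4 members with a measured start sit at 14.6% or lower.

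The 4 members whose listed window belongs to the measured start ran in opposite orders by CpG density and by level: Cebpb had the highest ratio and the lowest level, followed by Neurog1, Olig2 and Lep. Among the 5180 genes with an observed/expected ratio of 0.75 or more the median start level was 2.70% (quartiles 1.97% and 4.98%), and 2.30% of them were at 50% or more. Cebpb lay within those quartiles, and Neurog1 and Olig2 lay above them. Among the 3215 genes with a ratio from 0.5 to 0.75, to which Lep belongs, the median was 3.93% (quartiles 2.41% and 13.98%) and 5.44% were at 50% or more. Lep thus had an intermediate CpG density and a level far above the upper quartile of its class. The window listed for Pdgfra had a ratio of 0.216, and the median start level of the 582 genes under 0.25 was 19.0% (quartiles 5.04% and 45.8%).

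**Figure D4:**
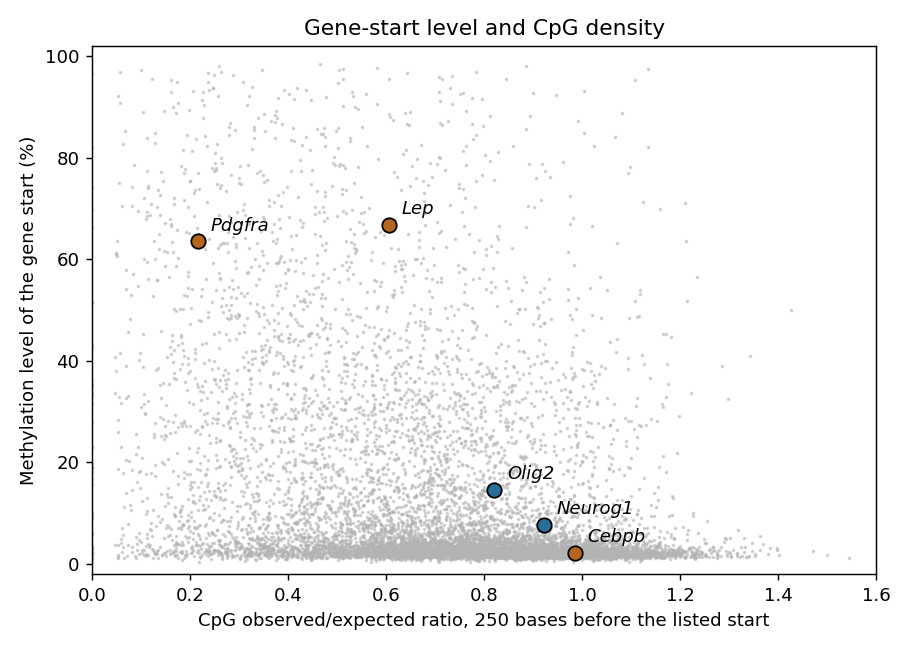
Methylation level of the gene start (percent) against the CpG observed/expected ratio of the 250 bases before the start that RefSeq lists, for all genes (grey) and the members with such a window and a measured start (brown: mesenchymal, blue: neural). Lep stands at 66.8% with a ratio of 0.606, and the ratio of Pdgfra (0.216) belongs to the listed start 929 bp inside the gene.

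Whether any of these levels moved after the serum shock was tested with limma over all runs of the genome. None of the 14 member runs passed at a Benjamini-Hochberg adjusted p under 0.05 for a 24 h rhythm (background 0% called of 18447 runs), for linear time (background 0%) or for any difference between time points (background 0.00542%, 1 run). At an unadjusted p under 0.05, 1 of 14 member runs was counted for the rhythm (background 4.34%), 2 for linear time (background 4.99%) and 1 for the time points (background 4.3%). The same held for the 13 gene segments of the members, with 0 called for the rhythm (background 0% of 20544 segments), linear time (background 0%) and the time points (background 0.00487%). At an unadjusted p under 0.05 the segments counted 1 for the rhythm (background 4.14%), 2 for linear time (background 4.87%) and 1 for the time points (background 4.28%).

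The start of Pdgfra had the steepest fitted line. Its 3 libraries stood at 35.8%, 47.2% and 71.5% at 12 h, at 69.2%, 36.0% and 37.7% at 18 h and at 49.4%, 54.5% and 60.2% at 24 h. They stood at 79.1%, 63.7% and 80.9% at 30 h, at 59.7%, 71.1% and 71.7% at 36 h and at 100%, 75.8% and 70.2% at 42 h. At 48 h they were 71.8%, 57.1% and 68.9%, at 54 h 51.6%, 53.0% and 84.3% and at 60 h 60.5%, 77.4% and 57.1%. The time point means were lowest at 18 h (47.6% ± 18.7) and highest at 42 h (82.0% ± 15.8; SD, n = 3), but libraries of 1 time differed by as much as the time points, with an SD within time points of 13.4 points. The mean of 42 h includes the library at 100%, the top of the scale. The other libraries of 42 h, at 75.8% and 70.2%, lay within the range of 30 h (63.7% to 80.9%). The slope was 17.3 points per 48 h (SE 8.40; limma adjusted p = 0.976, unadjusted p = 0.0494, or 0.132 without replicate 1 of 12 h), and the time points as a factor had an adjusted p of 0.990.

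Lep had the next steepest. Its libraries stood at 74.3%, 49.8% and 61.9% at 12 h, at 56.0%, 71.0% and 60.7% at 18 h and at 60.1%, 64.8% and 65.3% at 24 h. They were 62.1%, 67.7% and 73.0% at 30 h, 59.3%, 70.7% and 77.1% at 36 h and 62.0%, 75.6% and 58.2% at 42 h. At 48 h they stood at 68.5%, 64.0% and 83.7%, at 54 h at 65.3%, 65.1% and 65.7% and at 60 h at 68.2%, 78.3% and 75.7%. The lowest time point mean was that of 12 h (62.0% ± 12.3) and the highest that of 60 h (74.1% ± 5.22), and the libraries of these times overlapped. The slope was 9.56 points per 48 h (SE 4.12; limma adjusted p = 0.976, unadjusted p = 0.0283, or 0.0972 without replicate 2 of 12 h). With 1 library left out in turn, both slopes kept their sign, between 13.4 and 20.7 points for Pdgfra and between 7.06 and 12.05 for Lep.

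At the start of Olig2 the libraries stood at 10.8%, 30.7% and 19.1% at 12 h, at 2.49%, 6.56% and 4.66% at 18 h and at 16.8%, 0% and 3.86% at 24 h. They stood at 2.69%, 5.51% and 0% at 30 h, at 5.17%, 2.33% and 0% at 36 h and at 21.5%, 1.73% and 9.50% at 42 h. At 48 h they were 9.12%, 19.1% and 29.8%, at 54 h all 0% and at 60 h 28.7%, 20.5% and 4.66%. The libraries of 54 h were thus below each library of 12 h and 48 h, and the time point means ran from 0% at 54 h to 20.2% ± 10.0 at 12 h. This was the member run with the smallest p for the time points (F = 3.31, unadjusted p = 0.0146), and it did not pass (limma adjusted p = 0.990). The other 2 runs of Olig2 had time point ranges of 5.97 and 5.41 points, with the lowest means at 48 h.

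The region past the end of Gfap ran lowest at 54 h as well, with 45.5%, 44.4% and 57.5%, and highest at 12 h, with 64.3%, 63.8% and 64.3%. The time points between had means from 55.3% ± 7.29 (30 h) to 63.6% ± 6.43 (24 h), and 60 h had 59.4% ± 9.51 (SD, n = 3). The slope was -5.84 points per 48 h (SE 3.83; limma adjusted p = 0.979). Among the remaining runs the smallest rhythm p was that of Fn1, with an amplitude of 1.06 points (SE 0.394; unadjusted p = 0.0400, limma adjusted p = 0.980), and slopes ran from -1.78 points per 48 h (SE 1.33) at the start of Neurog1 to 4.60 (SE 3.81) upstream of Cebpb.

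**Figure D5:**
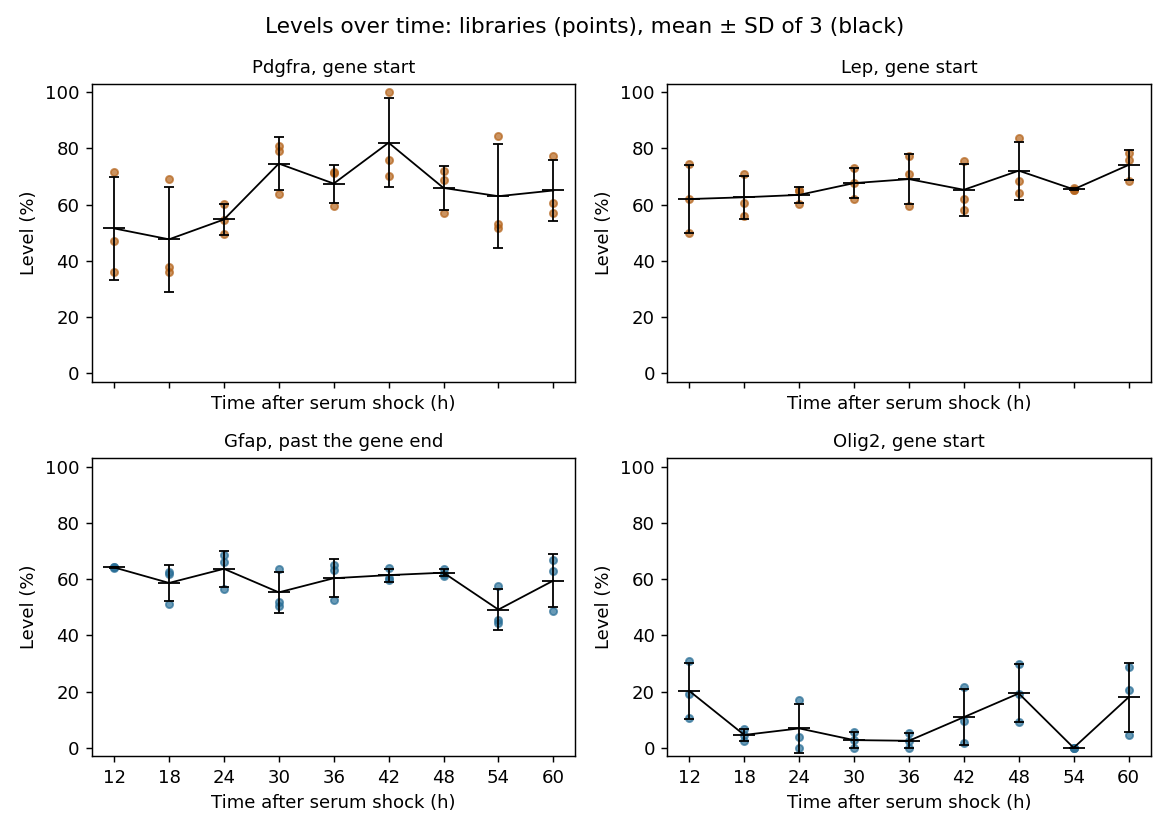
Methylation level (percent) against time after the serum shock (h) at the starts of Pdgfra, Lep and Olig2 and past the end of Gfap. Points are libraries, black marks and lines are the mean ± SD of 3 libraries. Libraries of 1 time point are spread widely at Pdgfra, and the 3 libraries of 54 h stand at 0% at Olig2.

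Further genes of the same lineages give the setting. A start was looked up only where the strand was known. This was so for 19 of 26 fibroblast and mesenchymal, 15 of 21 adipocyte and 21 of 28 neural and glial genes. A gene without a start below may therefore lack a strand entry and not a measurement. Of 26 fibroblast and mesenchymal genes, 12 had a measured start, with a median level of 11.3% and 5 under 10%, against 71.8% under 10% among all genes. The highest were Prrx1, a homeobox factor of limb mesenchyme (92.2% ± 1.81), and Eng, the TGF-beta co-receptor endoglin (70.8% ± 6.99), and the lowest were Vim, vimentin (1.88% ± 1.05), and Col5a1, a fibrillar collagen (1.74% ± 1.23). Of 21 adipocyte genes, 7 had a start, with a median of 19.99% and 3 under 10%. Lepr, the leptin receptor (53.1% ± 8.83), and Zfp423, a factor of preadipocyte commitment (49.8% ± 6.46), were highest, and Pnpla2, the triglyceride lipase (3.44% ± 6.04), and Pparg, the main regulator of adipogenesis (2.36% ± 1.47), were lowest. Of 28 neural and glial genes, 15 had a start, with a median of 24.4% and 5 under 10%. Cspg4, a proteoglycan of oligodendrocyte progenitors (49.3% ± 11.5), and the X-linked synapsin gene Syn1 (36.8% ± 15.4) led, and the neuroepithelial filament gene Nes (3.12% ± 1.80) and the neuronal tubulin gene Tubb3 (2.98% ± 1.82) were lowest (SD, n = 27 for all).

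None of the starts in these lists passed for the rhythm or linear time, against 0% of all segments. The smallest trend p-values were those of Tcf21 (6.46 points per 48 h, SE 3.88, unadjusted p = 0.107), Zfp423 (5.56, SE 3.66, unadjusted p = 0.1403) and Neurog3 (-1.52, SE 0.914, unadjusted p = 0.107), and the smallest rhythm p-values those of Eng (amplitude 4.58 points, SE 1.81, unadjusted p = 0.0572), Pnpla2 (3.63, SE 1.42, unadjusted p = 0.0549) and Syn1 (8.97, SE 3.85, unadjusted p = 0.0839), each with a limma adjusted p of 0.984 or more. For the time points, Pnpla2 passed (limma adjusted p = 0.0137), with 18.8% ± 5.82 at 48 h against 0.467% ± 0.808 to 3.50% ± 3.66 at the other times. It was the only segment called of 20544 (background 0.00487%). The lists were made with earlier results known, so its place in the adipocyte list is no result about that lineage. For Pnpla2 the limma adjusted p was 0.833 with M-values, 0.0507 with the library mean as a covariate and 0.133 when replicate 1 of 48 h was dropped, so the call rests on these choices. Dropping every replicate 1, every replicate 2 or every replicate 3 gave 0.600, 0.656 and 0.139. The smallest limma adjusted p over all leave-outs of libraries was 0.000617, so the value varied widely with the libraries used. The median slopes were 0.887 points per 48 h for the fibroblast list (9 of 12 up), 2.23 for the adipocyte list (5 of 7 up) and -0.464 for the neural list (6 of 15 up), against -0.0145 over all 10482 starts (5178 up).

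Over the 27 libraries, the starts whose levels followed those of a member most closely were sought among starts with a mean of 10% to 90% on other chromosomes. For Pdgfra they were Def6 (Pearson r = 0.651) and Kcp (0.631), of 2700 compared, for Lep Cavin4 (0.623) and C1qtnf3 (0.566), of 2734, and for Olig2 Decr2 (0.782) and Abca3 (0.679), of 2808. These are the highest of many correlations over the same 27 libraries, which differ in their missing positions (1640 to 21925) and in their share of zeros, and are given as a description. Between runs of the same gene, the same measure was low or negative at Pdgfra and Olig2: between the start of Pdgfra and its body runs r was -0.147 and -0.305, and between the start run of Olig2 and its other runs -0.571 and 0.000529 (n = 27).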

How the data were processed

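RRBS libraries of C2C12 cells at 9 time points, 3 each, were used. Per the submitters' processing notes, Trim Galore 0.4.0, cutadapt 1.9.1, Bismark 0.14.4, Bowtie2 and the build mm10 were used; the sources used here give neither settings nor order. The authors deposited methylation as a fraction (0 to 1) per position and library, per the file headers, and it was converted here to percent. It holds no read counts, so the depth is unknown, nothing was weighted and no interval from reads can be given. The table lists 937644 positions, and 871894 of them, complete over 27 libraries, were kept. Read with counting from 1, 99.98% of 245607 positions in promoter windows lay on a CpG (56.2% with counting from 0), so coordinates are printed as deposited.

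Runs (gaps of at most 200 bp) and gene segments, both with at least 3 positions, were means over positions. Genes and starts came from RefSeq GRCm38.p6, and strand from its promoter table for 26795 genes, that of Fn1 from general knowledge of the gene. No exon or intron annotation was used. Segments were start (1000 bp before to 500 bp after), end (last 500 bp to 1000 bp past), body and upstream (to 5000 bp); a position counted for the start first, then the end.

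Tests were limma 3.58.1 (R 4.3.3, with data.table, version 1.17.8) on percentage points over all 27 libraries, for 24 h cosine and sine, time as a factor and linear time, two-sided, with p-values adjusted over all runs or all segments, and checked on simulated data. Tables and figures used Python 3.11.15, numpy 2.4.6, pandas 2.3.3 and matplotlib 3.10.9. Alternatives were the M-value scale, a replicate term, the library mean as a covariate, other position filters, other run and start limits, periods of 20 h and 28 h, and leaving out libraries. The members and gene lists were chosen with earlier results of these data known. All members are named; of each list, the 2 highest and 2 lowest starts and the smallest trend and rhythm p were named.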

Additional observations from a re-analysis of the deposited data

How the results depend on the processing

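The count of member runs and segments past the threshold was 0 for the rhythm, the time points and the trend under each alternative and leave-out run, including the fit with replicate number as a block (0 in each of the 6 tests). Same-numbered libraries of different times did not deviate together (mean r = 0.00489 over 108 pairs, highest 0.0378), so the numbers were not read as pairs. The difference of mesenchymal minus neural starts of 23.0 points was 13.1 with at least 10 positions per segment, which removes Pdgfra, and also 13.1 without Pdgfra, 12.0 without Lep, 33.0 without Fn1 and 33.6 without Cebpb; over leave-outs of libraries it lay between 22.4 and 23.5. The upstream level of Cebpb was 49.0% with the start segment cut at 500 bp, which moves further positions into it, and 54.3% as a median over positions, and the start level of Cebpb was 0.930% as a median. On the M-value scale the slope turned to -0.00417 at the start of Cebpb, -0.364 at the start of Olig2 and -0.149 at the second run of Neurog1 (log2 units per 48 h), and the last was -1.75 points with positions in at least 24 libraries; the cause was not tested. Leaving out libraries turned the sign of slopes within -2.46 to 1.76 (first body run of Pdgfra), -4.79 to 5.85 (its second), -0.912 to 0.133 (Fn1), -0.308 to 0.237 (start of Cebpb), -2.44 to 5.84 (start of Olig2), -0.395 to 1.07 (its last run) and -0.238 to 1.06 (second run of Neurog1). The unknown depth limits what can be said of single CpGs.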
